A study of Mus musculus with 30 samples.

Results

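The receptor for colony-stimulating factor 1, its ligands and the neighbouring myeloid growth factor receptors were followed through 30 transcriptomes of CD11b+ brain cells. The members were chosen by name: Csf1r, Csf1, Il34, Csf2ra, Csf2rb, Csf2rb2, Csf3r, Kit and Flt3. Of these 9 genes, 7 had a row in the deposited table of 14225 transcripts and 2 (Il34 and Kit) had none, so that nothing can be said here of their levels. Each of the 7 genes had 1 row, and all 7 were tested without a further filter on low values.

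The mice were C57BL/6J. Pregnant mothers were given saline ("Saline") or poly(I:C), a double-stranded RNA mimic that sets off maternal immune activation ("MIA"), and microglia were taken from the whole brain of their offspring with CD11b beads. At E17, P7 and P20 the groups were Saline and MIA. At P60 the groups were Saline + CTRL and MIA + CTRL, whose offspring ate control chow, and Saline + MG-REP and MIA + MG-REP, whose offspring ate PLX5622, an inhibitor of the CSF1 receptor that depletes microglia, followed by control chow while microglia repopulated the brain. Each of the 10 groups had 3 libraries. Per the study's methods, a library came from the pooled brains of 1 litter at E17, from 3 pooled brains at P7 and from 1 brain at P20 and P60, and offspring of both sexes were used. The litters behind single libraries are not in the labels, so that p-values below measure the spread between these libraries.

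CSF1R is a receptor tyrosine kinase of the microglial surface on which these cells depend for survival. Both of its ligands, CSF1 and IL-34, signal through it, and in the brain IL-34 is made largely by neurons. The receptors for GM-CSF, IL-3 and IL-5 each pair a ligand-specific alpha chain, such as CSF2RA for GM-CSF, with a shared beta chain, CSF2RB. In mice a duplicated beta chain gene, Csf2rb2, serves IL-3 only. CSF3R binds G-CSF and is best known from neutrophils, and the receptor tyrosine kinases KIT and FLT3 act in blood progenitors, mast cells and dendritic cells.

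Values are TPM, the level of a transcript scaled to its length and to the library's total, and all levels and ratios below are TPM. Differences are log2(TPM + 1), so that they understate the change of genes near 1 TPM, and were tested with limma across all 14225 transcripts with Benjamini-Hochberg adjustment. A transcript was called where the adjusted p was under 0.05. The step between low values put each library at an estimated 8010000 to 12830000 counted reads. In bulk RNA, fewer cells of a type and less RNA per cell cannot be told apart.

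Some libraries stood apart. The summed level of the 10 neutrophil and monocyte markers with a row, of 11 listed, was 5452 TPM in library 2 of Saline + MG-REP, against 121.8 and 370 TPM in the other libraries of that group and 794.2 to 931.6 TPM in Saline + CTRL. The 3 neuron markers with a row, of 5 listed, summed to 862.8 TPM in library 1 of MIA at E17. They summed to 130.8 and 117.4 TPM in the other libraries of that group and to 106.4 to 222.7 TPM in Saline at E17. All 6 MG-REP libraries and all 6 P20 libraries carried Xist without Y-linked transcripts, whereas in each CTRL group library 1 carried Xist and libraries 2 and 3 carried Y-linked transcripts. The 5 microglial markers C1qa, Cx3cr1, Fcrls, Tmem119 and P2ry12 were above 0 in every library, so that these defining genes of the labelled cell type were present throughout. Their sum lay between 9242 TPM, in the same library 1 of MIA at E17, and 27100 TPM.

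Csf1r was among the most abundant transcripts of these cells. Its mean over 30 libraries was 6207 TPM, rank 8 of 14225, with single libraries between 2934 TPM (MIA at E17, library 1) and 9492 TPM (Saline + CTRL, library 3). Its only curated RefSeq transcript, NM_001037859, lies at chr18:61105572-61131139 (mm10), and an estimated 42637 to 151169 reads stood behind each value. The levels of the other members were lower by an order of magnitude or more: 294 TPM for Csf2ra, 84.0 TPM for Csf2rb, 3.31 TPM for Csf1, 2.43 TPM for Flt3, 2.40 TPM for Csf2rb2 and 1.59 TPM for Csf3r (means over 30 libraries). For the last 4 of these genes an estimated 2.4 to 89.2 reads stood behind each value, which limits what could be detected. The estimates for Csf1 and Csf3r (from 7.2 and 2.4 reads up) often lay between whole numbers and are rough.

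For 4 of the 7 genes the row stands for 1 of several curated transcripts, and how reads shared between transcripts were assigned is not given in the sources used here. The Csf1 row, NM_001113530, was 1 of 3 curated transcripts, and 11.7% of its bases lie in neither of the others. The Csf3r row, NR_045561, was the non-coding 1 of 3, with 0.8% of its bases its own. The Csf2rb row, NM_007780, and the Csf2rb2 row, NM_007781, were each 1 of 2, with 0.5% and 28.8% of bases their own. Across the table, rows of genes with 2 or more curated transcripts had a median level of 6.19 TPM, against 25.42 TPM for genes with 1. The levels of these 4 members are therefore given as those of the listed transcript, and the level of the whole gene is not known here.

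**Figure D1:**
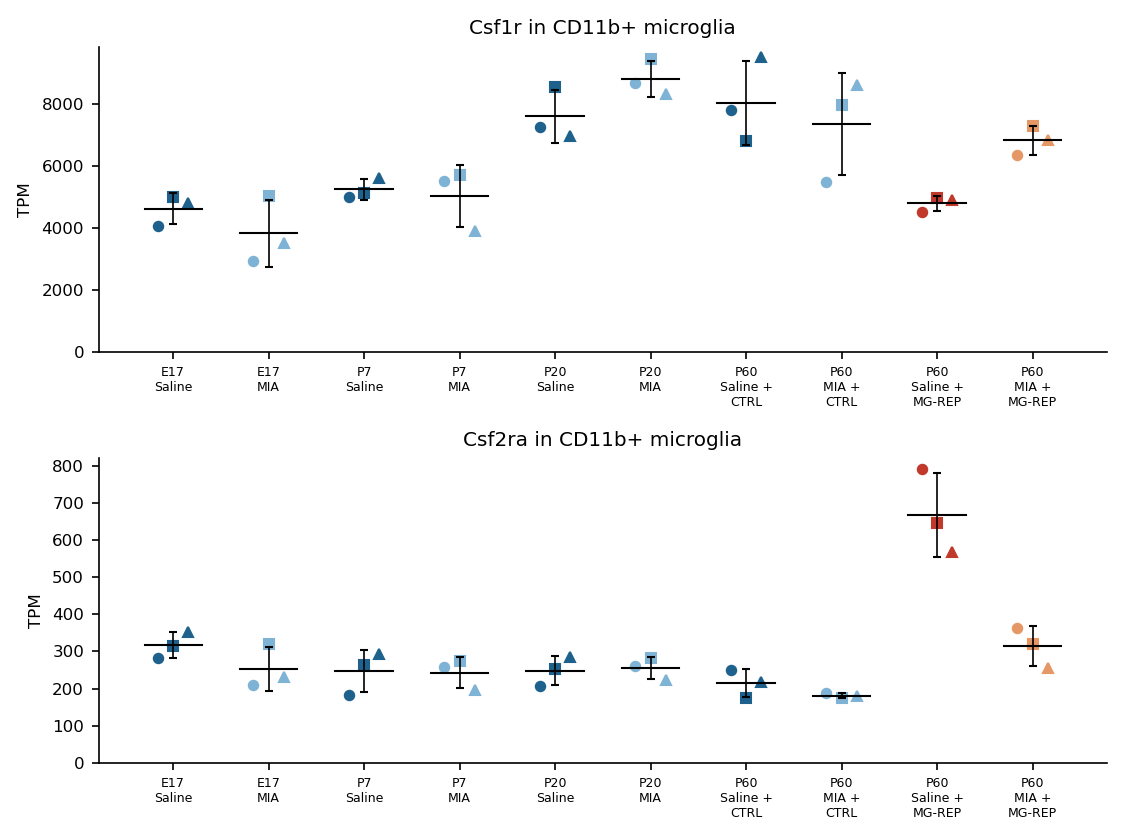
TPM of Csf1r (top) and Csf2ra (bottom) in each of the 30 libraries, by age and treatment. Circles, squares and triangles are libraries 1, 2 and 3, and the black line and bar give the mean and SD (n = 3). Group means of Csf1r were higher at P20 and P60 than at E17 and P7 except in Saline + MG-REP (libraries at 4498 to 4948 TPM). The lowest library of MIA + CTRL (5475 TPM) lay below the highest of both P7 groups. Csf2ra stood above every other library in Saline + MG-REP (567.43 to 790.56 TPM).

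The first question was how the depletion and repopulation left the receptor that the drug targets. In Saline offspring, Csf1r was lower after MG-REP. It measured 7801, 6797 and 9492 TPM in the 3 libraries of Saline + CTRL, and 4498, 4948 and 4904 TPM in those of Saline + MG-REP. The groups did not overlap, and the fall by 0.73 on the log2 scale (SE 0.19, limma, adjusted p = 0.00551) left a level 0.601 times that of the controls (95% interval 0.457 to 0.791). In MIA offspring, Csf1r measured 5475, 7957 and 8606 TPM in MIA + CTRL and 6357, 7273 and 6824 TPM in MIA + MG-REP. Those groups overlapped, with a log2 difference of -0.08 (95% interval -0.48 to 0.31, adjusted p = 0.979).

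The difference of Csf1r between the arms was itself tested and did not pass, with a larger log2 difference of MG-REP against CTRL in MIA than in Saline offspring by 0.65 (SE 0.27, adjusted p = 0.139). Between the repopulated groups alone, Csf1r in MIA + MG-REP was above Saline + MG-REP in every library, by 0.51 on the log2 scale (SE 0.19, adjusted p = 0.0591). The call of Csf1r in Saline offspring was lost when Xist entered the fit (fall by 0.54, adjusted p = 0.103), when the Y-marked CTRL libraries were left out (fall by 0.71, adjusted p = 0.0624), under median-ratio scaling (fall by 0.60, adjusted p = 0.134) and when only these groups were fitted (fall by 0.73, adjusted p = 0.133). It held without the library rich in neutrophil and monocyte markers (fall by 0.76, adjusted p = 0.0120).

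Most other microglial markers fell with Csf1r in Saline offspring, to unequal degrees. The 5-gene microglial sum was 13610 to 14950 TPM in Saline + MG-REP against 18650 to 27100 TPM in Saline + CTRL. Of its 5 genes 4 were called lower, where 14.9% of all transcripts were called lower. On the log2 scale P2ry12 fell by 2.28, Cx3cr1 by 1.36, Fcrls by 1.005 and Tmem119 by 0.90. C1qa did not fall, at 8875 TPM after MG-REP and 8702 TPM in the controls (log2 difference 0.05, limma, adjusted p = 0.902). In MIA offspring the sum was 21380 to 23920 TPM in MIA + MG-REP against 16100 to 23740 TPM in MIA + CTRL, and none of the 5 was called. The part of cell composition in the Csf1r difference was not tested.

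Csf2ra, which encodes the alpha chain that binds GM-CSF, was higher after MG-REP in Saline offspring, where Csf1r was lower. It measured 250.12, 174.52 and 218.89 TPM in Saline + CTRL and 790.56, 646.35 and 567.43 TPM in Saline + MG-REP. Every repopulated library lay far above every control library, and the log2 difference was 1.64 (SE 0.19, limma, adjusted p = 4.24e-07), 3.11-fold (95% interval 2.37 to 4.08). Without the library rich in neutrophil and monocyte markers the log2 difference was 1.65 (adjusted p = 3.99e-06).

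In MIA offspring, Csf2ra measured 188.61, 175.77 and 178.97 TPM in MIA + CTRL and 364.07, 320.50 and 256.46 TPM in MIA + MG-REP. These groups did not overlap, and the log2 difference of 0.77 (SE 0.19) had an unadjusted p of 0.000436 and an adjusted p of 0.0682, short of the threshold. The difference between the arms was called, with a smaller log2 difference in MIA than in Saline offspring by -0.86 (SE 0.27, limma, adjusted p = 0.0400), but leaving out 1 library gave adjusted p-values from 0.0264 to 0.135 and lost the call in 9 of 12 fits. Directly between the repopulated groups, which the previous comparisons share, Csf2ra was lower in MIA + MG-REP than in Saline + MG-REP by a log2 difference of -1.09 (SE 0.19, adjusted p = 0.000156).

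Border macrophages and monocytes can also carry Csf2ra, and single markers of both moved with it. The sum of the 6 border macrophage markers with a row, of 7 listed, was 687.4 to 1320 TPM in Saline + MG-REP, 422.1 to 567.8 TPM in Saline + CTRL, 267.2 to 397.6 TPM in MIA + MG-REP and 411.9 to 441 TPM in MIA + CTRL. In Saline offspring 1 of the 6 was called higher, Pf4, which averaged 577 TPM after MG-REP and 137 TPM in the controls (log2 difference 1.97, SE 0.34, limma, adjusted p = 0.000100). By library, Pf4 measured 900.99, 421.77 and 407.69 TPM in Saline + MG-REP and 156.39, 132.87 and 121.88 TPM in Saline + CTRL. The higher sum in Saline + MG-REP therefore rested on Pf4. Cd163 was called lower and was at 0 in libraries 1 and 2 of Saline + MG-REP, and the other 4 did not pass, among them Mrc1, at 186 and 195 TPM. Of the 10 neutrophil and monocyte markers, Ccr2 was called higher in Saline offspring, at 58.2 TPM after MG-REP and 18.8 TPM in the controls (log2 difference 1.57, SE 0.28, adjusted p = 0.000166), and Plac8 was called lower. In MIA offspring none of these markers was called, with Pf4 at 80.4 and 126 TPM and Ccr2 at 25.1 and 16.4 TPM in MG-REP and CTRL. The part of these cells in the Csf2ra difference was not tested. Without the Y-marked CTRL libraries, Csf2ra stayed called in Saline offspring (log2 difference 1.40, adjusted p = 0.00166).

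Because Csf1r and Csf2ra moved in opposite directions in Saline offspring, their ratio separated the groups widely. Csf2ra was 14.1% ± 3.13 of Csf1r in Saline + MG-REP (SD, n = 3) and 2.69% ± 0.463 in Saline + CTRL, a 5.19-fold difference of geometric means. In MIA + MG-REP it was 4.63% ± 1.00 and in MIA + CTRL 2.58% ± 0.754, a 1.82-fold difference. Neither pair of groups overlapped, and both gave p = 0.1 in a two-sided exact permutation test, the smallest p that 3 libraries against 3 allow (0.3 after adjustment over the 21 ratio comparisons made). At E17 the ratio was 6.87% ± 0.508 in Saline and 6.70% ± 0.396 in MIA, and the group means were lower at P7 (4.69% and 4.84%), P20 (3.30% and 2.89%) and in the P60 CTRL groups. Every library of Saline + MG-REP lay above all E17 libraries.

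**Figure D2:**
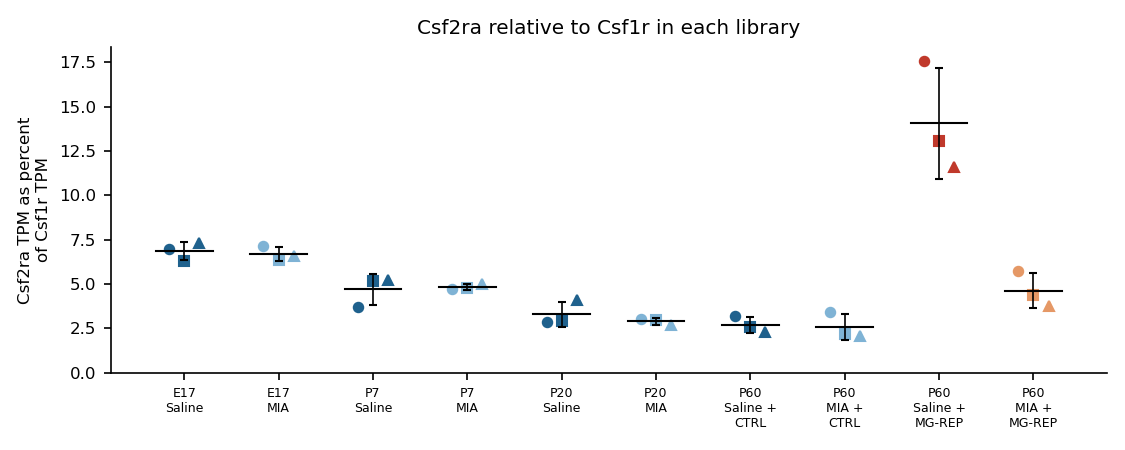
Csf2ra TPM as a percent of Csf1r TPM in each library, with the mean and SD of each group (n = 3) in black and the marker shapes as libraries 1 to 3. The 3 libraries of Saline + MG-REP lie between 11.57% and 17.57%, and no other library exceeds 7.327%.

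Csf2rb, the beta chain shared by the GM-CSF, IL-3 and IL-5 receptors, showed a smaller difference. It measured 76.38, 56.63 and 77.14 TPM in Saline + CTRL and 116.80, 109.24 and 97.57 TPM in Saline + MG-REP. The groups did not overlap, but the log2 difference of 0.63 (SE 0.24) missed the threshold (adjusted p = 0.0615). It was 58.08, 62.72 and 65.77 TPM in MIA + CTRL and 80.16, 91.37 and 75.54 TPM in MIA + MG-REP, again without overlap (log2 difference 0.40, adjusted p = 0.955).

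The ratio of the alpha to the beta chain was higher in every MG-REP library than in every CTRL library of the same arm. The ratio of Csf2ra to Csf2rb was 6.17 ± 0.523 in Saline + MG-REP and 3.07 ± 0.219 in Saline + CTRL (SD, n = 3, exact permutation test, p = 0.1, the smallest possible). In MIA offspring it was 2.92 ± 0.283 with control chow and 3.82 ± 0.632 after MG-REP (n = 3, exact permutation test, p = 0.1). Both were 0.3 after adjustment over the 21 ratio comparisons, and whether the arms differ in this shift was not tested.

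Csf2rb2, the IL-3-specific copy, was far lower. It made up 1.67% to 4.06% of the pair's summed TPM in the group means. It measured 1.70, 2.61 and 3.54 TPM in Saline + CTRL and 2.47, 2.53 and 3.35 TPM in Saline + MG-REP, and the groups overlapped (log2 difference 0.09, 95% interval -0.43 to 0.60). In MIA offspring it measured 2.91, 2.29 and 2.66 TPM in MIA + CTRL and 4.26, 3.72 and 2.46 TPM in MIA + MG-REP, with overlap (log2 difference 0.29, adjusted p = 0.978).

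These paralogs cannot be fully separated by short reads, which bears on both values. Csf2rb lies at chr15:78325800-78351001 (mm10) and Csf2rb2 at chr15:78282507-78305721. Their coding sequences were 92.9% identical over 2694 aligned columns, and 23.3% of the 40-base windows of the Csf2rb transcript, the length of the study's reads, also occur in Csf2rb2. The longest shared coding run was 242 bases, in exon 14 of each transcript. It is shown with 20 bases on either side, in the 5′ to 3′ direction of the gene, with the 4 differing bases in capitals, from chr15:78348557-78348838 (plus strand) for Csf2rb and chr15:78284610-78284891 (minus strand) for Csf2rb2.
Csf2rb: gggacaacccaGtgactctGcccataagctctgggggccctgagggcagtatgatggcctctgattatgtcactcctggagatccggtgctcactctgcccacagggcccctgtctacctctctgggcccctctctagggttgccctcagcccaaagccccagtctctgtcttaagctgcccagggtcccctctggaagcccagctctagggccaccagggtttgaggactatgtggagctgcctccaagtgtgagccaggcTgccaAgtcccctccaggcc
Csf2rb2: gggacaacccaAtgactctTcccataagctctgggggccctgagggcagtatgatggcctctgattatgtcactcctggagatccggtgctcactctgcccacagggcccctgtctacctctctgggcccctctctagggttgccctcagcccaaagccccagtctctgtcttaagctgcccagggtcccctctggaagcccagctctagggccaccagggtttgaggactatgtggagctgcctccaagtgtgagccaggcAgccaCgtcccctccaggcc
A 40-base read from within the run cannot be assigned to either gene by its sequence. How the study's alignment treated such reads is not given in the sources used here, so the low Csf2rb2 value and its share of the pair are uncertain.

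Among the ligands, only Csf1 had a row. Csf1 measured 2.56, 2.25 and 2.72 TPM in Saline + CTRL and 0.82, 3.51 and 1.30 TPM in Saline + MG-REP. Library 2, the one rich in neutrophil and monocyte markers, held the highest of these values, and the groups overlapped (log2 difference -0.40, SE 0.31, adjusted p = 0.398). In MIA + CTRL it measured 2.26, 1.20 and 1.01 TPM and in MIA + MG-REP 3.61, 3.79 and 1.88 TPM, with overlap (log2 difference 0.71, unadjusted p = 0.0326, adjusted p = 0.724). The difference between the arms was 1.11 (SE 0.44, adjusted p = 0.123), and it was called without library 2 of Saline + MG-REP (1.49, adjusted p = 0.0212).

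Flt3, a receptor of progenitors and dendritic cells, measured 3.01, 2.18 and 2.19 TPM in Saline + CTRL and 2.35, 5.29 and 6.66 TPM in Saline + MG-REP. The groups overlapped through library 1 of MG-REP, and the log2 difference was 0.66 (SE 0.28, adjusted p = 0.0886). Without that library the difference was 1.01 and called (adjusted p = 0.0118), and it was also called under median-ratio scaling (0.77, adjusted p = 0.0469) and quantile normalization (0.84, adjusted p = 0.0388). In MIA offspring the values were 1.98, 2.43 and 1.66 TPM in MIA + CTRL and 3.87, 4.15 and 2.59 TPM in MIA + MG-REP, without overlap (log2 difference 0.58, adjusted p = 0.822). The sum of the 4 dendritic cell markers with a row, of 8 listed, was 9.41 to 14.06 TPM in Saline + MG-REP against 23.13 to 31.11 TPM in Saline + CTRL, and their part in the Flt3 values was not tested.

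Csf3r, the G-CSF receptor, measured 2.79, 1.25 and 2.09 TPM in Saline + CTRL and 1.09, 2.34 and 1.66 TPM in Saline + MG-REP, with overlap (log2 difference -0.17, 95% interval -0.66 to 0.32). In MIA offspring it measured 1.42, 1.76 and 2.25 TPM in MIA + CTRL and 3.19, 2.36 and 1.72 TPM in MIA + MG-REP (log2 difference 0.27, adjusted p = 0.978).

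Counted over the members, 2 of 7 were called for MG-REP against CTRL in Saline offspring, Csf2ra higher and Csf1r lower, where 26.7% of all transcripts were called. In MIA offspring limma called 0 of 7, where 0.555% of all transcripts were called, and 2 of 7 (Csf2ra and Csf1) had an unadjusted p under 0.05, where 6.20% of all transcripts did. The test of the difference between the arms called 1 of 7 (Csf2ra), where 10.5% of all were called, and the comparison of MIA + MG-REP with Saline + MG-REP called 1 of 7 (Csf2ra), where 22.0% were called. The share of members called was therefore near the background in Saline offspring. The median log2 difference of the members was 0.09 in Saline offspring, beside -0.14 over all transcripts. Of the transcripts called there, 44.3% were higher, and this share was 57.5% under median-ratio scaling, which moved the median of all transcripts to -0.05.

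**Figure D3:**
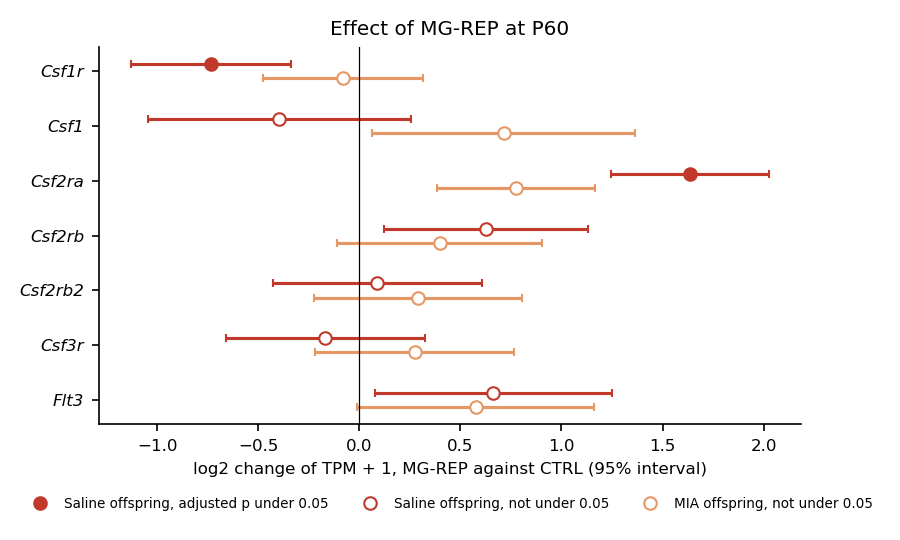
Log2 difference of TPM + 1 between MG-REP and CTRL at P60 for the 7 members, in Saline (red) and MIA (orange) offspring. Bars are 95% intervals from limma, and filled points had an adjusted p under 0.05: Csf1r (-0.73) and Csf2ra (1.64) in Saline offspring.

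The next question was whether maternal immune activation alone moved the axis. At E17, P7, P20 and in the P60 CTRL groups, limma called 0 of the 28 member tests of MIA against Saline, and 0% of all transcripts were called at any of these ages. None of the 28 had an unadjusted p under 0.05, beside 4.11% of all transcripts at E17, 2.36% at P7, 3.21% at P20 and 1.80% at P60. The log2 differences lay between -0.53 and 0.38, and the lowest unadjusted p was 0.0861, for Csf2ra at E17. There Csf2ra measured 281.76, 315.51 and 352.27 TPM in Saline and 209.54, 319.48 and 230.16 TPM in MIA, with overlap (log2 difference -0.34, 95% interval -0.73 to 0.05). The lowest of these values, 209.54 TPM, was in the library rich in neuron markers, and their part in it was not tested. The intervals were wide enough to leave room for a change: for Csf1r at P60 CTRL the difference was -0.14, with an interval from -0.54 to 0.25.

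Between ages, most calls of members fell on the step from P7 to P20. Steps of age were tested with Saline and MIA libraries joined. Their SE was therefore smaller than that of MIA against Saline at 1 age (0.14 against 0.19 for Csf1r). Csf1r rose between P7 and P20, from 4990, 5107 and 5606 TPM in Saline and 5492, 5714 and 3889 TPM in MIA to 7263, 8551 and 6958 TPM in Saline and 8671, 9434 and 8304 TPM in MIA. All P20 libraries lay above all P7 libraries, and the log2 difference was 0.68 (SE 0.14, limma, adjusted p = 0.000205). Under quantile normalization, which pulls the most abundant transcripts together, it was 0.27 (adjusted p = 0.0132). The 5-gene microglial sum also rose, from 10390 to 15380 TPM at P7 to 19830 to 26550 TPM at P20. Of its 5 genes 4 were called higher, and of the 6 border macrophage markers 4 were called lower and 2 higher. Over all transcripts, 21.6% were called higher and 29.1% lower at this step. The P7 libraries were pools of brains, most with both Xist and Y-linked transcripts, whereas P20 libraries were single brains with Xist only. The part of cell composition and pooling in the rises between these ages was not tested. From E17, where Csf1r averaged 4616 TPM in Saline and 3814 TPM in MIA, the difference to P7 was 0.30 (adjusted p = 0.169), and from P20 to the P60 CTRL groups it was -0.11 (adjusted p = 0.675).

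Csf3r, Flt3 and Csf1 also rose between P7 and P20. Csf3r measured 0.20 to 1.64 TPM at P7 and 1.84 to 2.99 TPM at P20, without overlap (log2 difference 0.92, SE 0.17, adjusted p = 8.42e-05). Flt3 measured 0.84 to 1.70 TPM at P7 and 1.81 to 5.08 TPM at P20, also without overlap (log2 difference 0.79, SE 0.20, adjusted p = 0.00200). Csf1 measured 2.29 to 5.16 TPM at P7 and 3.48 to 7.45 TPM at P20, with overlap (log2 difference 0.66, SE 0.22, adjusted p = 0.0157), and the adjusted p was 0.0502 without library 3 of Saline at P20.

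Csf1 fell again from P20 to adulthood. It averaged 5.12 ± 1.78 TPM in Saline and 6.82 ± 1.08 TPM in MIA at P20 (SD, n = 3), and 2.51 ± 0.239 TPM in Saline + CTRL and 1.49 ± 0.674 TPM in MIA + CTRL at P60. All P60 CTRL libraries lay below all P20 libraries, and Csf1 fell by 1.22 on the log2 scale (SE 0.22, adjusted p = 0.000950). All 6 P20 libraries carried Xist, against 2 of the 6 CTRL libraries, and with Xist in the fit Csf1 fell by 0.95 (adjusted p = 0.125). The 4 oligodendrocyte markers with a row, of 5 listed, were in sum also highest at P20, at 955.1 to 2619 TPM, against 121.7 to 240.2 TPM at P7 and 272.5 to 1001 TPM in the P60 CTRL groups, and their part in the Csf1 level was not tested.

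The subunits of the GM-CSF receptor had a flatter course. Csf2ra averaged 242.7 to 316.5 TPM over the 6 groups of E17, P7 and P20 and 181.1 to 214.5 TPM in the P60 CTRL groups, and no step between ages was called. Csf2rb averaged 69.93 to 102.4 TPM up to P20, with 1 library apart: library 3 of Saline at P20 measured 142.82 TPM beside 58.63 and 64.38 TPM. The log2 difference of Csf2rb from P7 to P20 was -0.30 (SE 0.17, adjusted p = 0.155), and without that library it was -0.50 and called (SE 0.14, adjusted p = 0.00448). The same library also held the highest Csf2rb2 value of the series, 4.34 TPM.

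Over the steps of age, limma called 0 of 7 members from E17 to P7, where 10.8% of all transcripts were called and 1 member (Csf1r) had an unadjusted p under 0.05, where 24.5% of all transcripts did. It called 4 of 7 from P7 to P20 (Csf1r, Csf3r, Flt3 and Csf1), all higher, where 50.7% of all transcripts were called and 21.6% were called higher. It called 1 of 7 from P20 to P60 CTRL (Csf1, lower), where 12.0% were called.

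**Figure D4:**
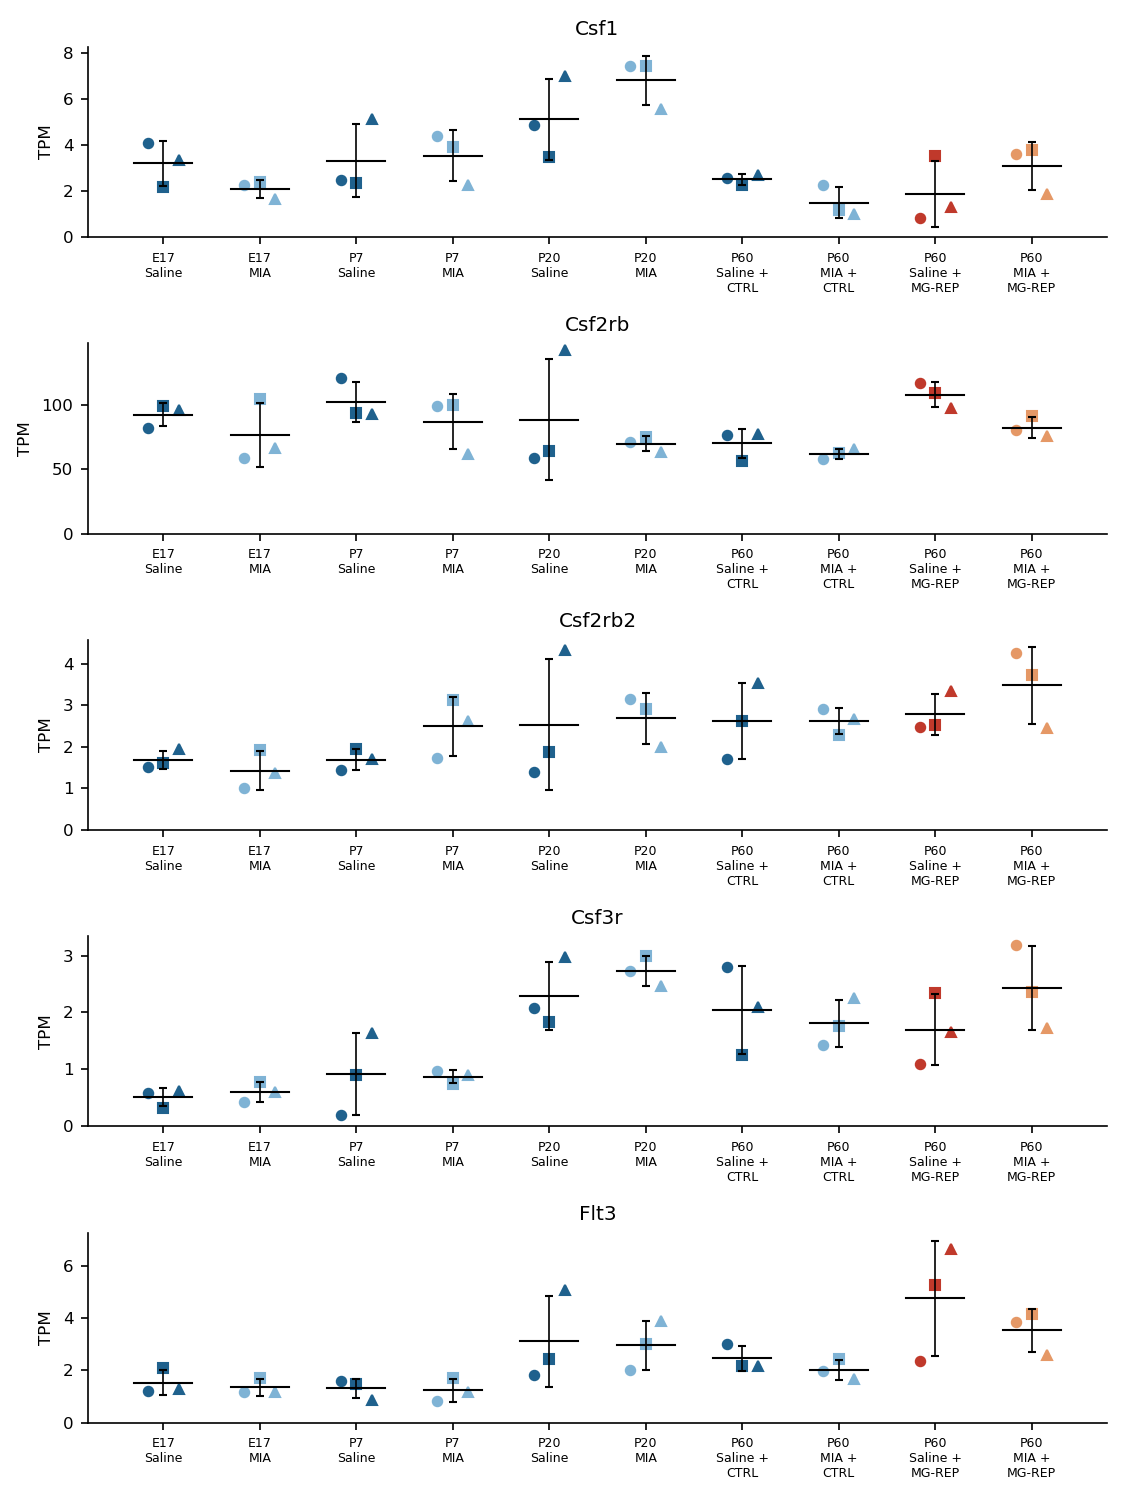
TPM of Csf1, Csf2rb, Csf2rb2, Csf3r and Flt3 in each library, by age and treatment, with the mean and SD of each group (n = 3) in black and marker shapes as libraries 1 to 3. Csf3r rose from 0.20 to 1.64 TPM at P7 to 1.84 to 2.99 TPM at P20, and Csf1 was highest at P20.

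Ordered by level, the groups formed runs that did not separate. For Csf1r, the order from the top was MIA at P20 (8803 TPM), Saline + CTRL (8030 TPM), Saline at P20 (7591 TPM), MIA + CTRL (7346 TPM) and MIA + MG-REP (6818 TPM), each overlapping its neighbour. MIA + MG-REP did not overlap with the next group, Saline at P7 (5234 TPM), although the lowest library of MIA + CTRL (5475 TPM) lay below the highest of Saline at P7 (5606 TPM). There followed MIA at P7 (5032 TPM), Saline + MG-REP (4784 TPM), Saline at E17 (4616 TPM) and MIA at E17 (3814 TPM). Saline + MG-REP thus lay among the groups of E17 and P7. For Csf2ra the only gap between neighbours was the one below Saline + MG-REP (668.1 TPM), with Saline at E17 next (316.5 TPM).

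Across the 30 libraries, Csf1r varied most closely with Csf3r among the members (Pearson r of log2(TPM + 1) 0.76) and Csf2ra with Csf2rb (0.62), whereas Csf1r with Csf2ra gave -0.24. These describe libraries that share ages and treatments. Among 8096 transcripts of at least 10 TPM on average, those most like Csf1r were Ifngr1 (0.97), which encodes a chain of the interferon gamma receptor, Daglb (0.97), a diacylglycerol lipase, and Rhoh (0.96), a GTPase of blood cells. Those most like Csf2ra were Med11 (0.92), Tep1 (0.92) and Bst2 (0.92), an interferon-induced membrane protein, and those most like Csf2rb were Lrrfip1 (0.86), Cd68 (0.86), a lysosomal macrophage protein, and Igsf6 (0.85).

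For the low transcripts, matches included Mir7115 (0.94) and Gfm2 (0.90) for Csf3r, and the closest were Bcl2a1a (0.83), Lgals3bp (0.82) and Amz1 (0.81) for Flt3. For Csf1 they were Nxf1 (0.80), Vps51 (0.75) and Tmem86b (0.75), and for Csf2rb2 Slamf6 (0.79), Tapbpl (0.75) and Fam217b (0.75). The study's own k-means modules, made on these libraries, placed Csf1r, Csf1 and Csf3r in the juvenile module, Csf2ra, Csf2rb and Flt3 in the repopulated adult module and Csf2rb2 in the adult module.

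The wider pathway was read from a list of 61 genes, of which 43 had a row and gave 50 transcripts. For MG-REP against CTRL in Saline offspring, 8 of the 50 were called higher and 5 lower, 26% in all beside 26.7% over the table, and 37 did not pass. The Saline + MG-REP libraries carried Xist without Y-linked transcripts, whereas libraries 2 and 3 of Saline + CTRL carried Y-linked transcripts. The part of this marking in the pathway calls was not tested. In MIA offspring limma called 0 of 50, where 0.555% of all transcripts were called. Of the 50, 4 had an unadjusted p under 0.05, where 6.20% of all transcripts did. The median log2 difference of the 50 was -0.0035 in Saline and -0.0043 in MIA offspring, beside -0.14 and -0.08 over all transcripts.

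Among related ligands and partner receptors (12 listed, 7 with a row), Il3ra was called. It encodes the alpha chain of the IL-3 receptor, the partner of the beta chains described above. Il3ra averaged 14.8 ± 3.18 TPM in Saline + CTRL and 56.7 ± 13.0 TPM in Saline + MG-REP (SD, n = 3), a log2 difference of 1.87 (SE 0.20, adjusted p = 1.24e-07). It averaged 12.4 ± 2.34 TPM in MIA + CTRL and 13.1 ± 1.89 TPM in MIA + MG-REP, with a log2 difference of 0.08 (SE 0.20, adjusted p = 0.979), and the difference between the arms was -1.79 (SE 0.28, adjusted p = 0.000140). Il3ra had also fallen from P7 to P20, from 71.2 to 16.3 TPM. Kitl, the ligand of KIT, was higher in MIA + MG-REP (89.6 TPM) than in Saline + MG-REP (40.9 TPM, log2 difference 1.18, SE 0.37, adjusted p = 0.0246).

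Among the receptor signalling genes, 4 of 22 transcripts rose in Saline offspring and 2 fell. Those that rose were Gab3, an adaptor downstream of CSF1R (log2 difference 1.29, SE 0.18, adjusted p = 6.72e-06), the Src-family kinase Fgr (0.93, SE 0.33, adjusted p = 0.0365), the adaptor Tyrobp (0.80, SE 0.20, adjusted p = 0.00456) and the phospholipase Plcg2 (0.47, SE 0.16, adjusted p = 0.0330). Tyrobp, which encodes DAP12, averaged 2877 TPM in Saline + CTRL and 4963 TPM in Saline + MG-REP. Those that fell were Pik3r1 (NM_001077495, -0.81, SE 0.14, adjusted p = 6.77e-05), a regulatory subunit of PI3 kinase, and Pik3cd (NM_001029837, -0.50, SE 0.16, adjusted p = 0.0222), a catalytic one. This Pik3cd transcript averaged 1.81 TPM in Saline + CTRL and 0.993 TPM in Saline + MG-REP. The other transcripts of these genes were not called: Pik3cd NM_008840, at 0.66 and 0.79 TPM, and Pik3r1 NM_001024955, at 0.137 and 0.193 TPM. Leaving out 1 library ended some of these calls. For Fgr the adjusted p was then 0.0598 to 0.155 in 5 of 6 fits, and only the fit without library 3 of Saline + MG-REP kept the call. For Pik3cd it was 0.0523 to 0.104 in 4 of 6, without library 1 or 2 of either group. For Plcg2 it was 0.172 without library 2 of Saline + CTRL and 0.227 without library 1 of Saline + MG-REP. Fgr had a like estimate in MIA offspring, at 0.98 (SE 0.33, adjusted p = 0.330), while Gab3 was at 0.22 (SE 0.18) and its difference between the arms was called (-1.06, SE 0.26, adjusted p = 0.00734).

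Among the negative regulators, 1 of 8 rose, the docking protein Dok2, from 7.95 ± 1.40 to 32.4 ± 23.6 TPM (SD, n = 3, log2 difference 1.69, SE 0.40, adjusted p = 0.00258). Library 1 of Saline + MG-REP, at 59.57 TPM, carried much of this: the other libraries averaged 18.8 TPM, and without it the log2 difference was 1.15 (SE 0.38, adjusted p = 0.0392). In the JAK-STAT arm, which cytokine receptors such as that of GM-CSF use, Pim1, a kinase induced by STAT5, rose from 74.1 ± 6.00 to 334 ± 70.8 TPM (log2 difference 2.14, SE 0.22, adjusted p = 8.43e-08). In MIA offspring Pim1 was 63.3 ± 6.07 TPM in CTRL and 60.5 ± 7.09 TPM in MG-REP, and the difference between the arms was -2.20 (SE 0.32, adjusted p = 4.26e-05). Jak1 and Jak2 were lower in Saline + MG-REP, by a log2 difference of -0.45 (adjusted p = 0.000511) and -0.48 (adjusted p = 0.0409). The call of Jak2, which averaged under 2 TPM, was lost in 4 of 6 fits with 1 library left out (libraries 1 and 3 of Saline + CTRL and 1 and 2 of Saline + MG-REP, adjusted p = 0.0879 to 0.206).

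Among transcription factors known to act on Csf1r, Ets2 rose in Saline offspring from 128 ± 10.5 to 358 ± 52.2 TPM (log2 difference 1.47, SE 0.15, adjusted p = 5.20e-08) and Ets1 fell from 10.4 ± 0.603 to 2.26 ± 0.555 TPM (-1.81, SE 0.25, adjusted p = 4.80e-06). In MIA offspring Ets2 was 118 ± 8.56 TPM in CTRL and 116 ± 9.65 TPM in MG-REP (difference between the arms -1.49, SE 0.21, adjusted p = 3.13e-05). Spi1, which encodes the myeloid factor PU.1, did not pass (618.8 TPM in Saline + MG-REP and 589.4 TPM in Saline + CTRL, adjusted p = 0.836). In MIA offspring Ets1 was 10.3 ± 1.24 and 7.40 ± 0.142 TPM (difference between the arms 1.39, SE 0.35, adjusted p = 0.0107). The summed endothelial cell markers were 20.88 to 40.66 TPM in Saline + MG-REP and 52.08 to 83.42 TPM in Saline + CTRL. The NK and T cell markers summed to 0.53 to 4.86 TPM and 3.83 to 14.2 TPM in these groups. The part of cell composition in the pathway differences, that of Ets1 among them, was not tested. Over the 50 transcripts the difference between the arms was called for 6, namely Il3ra, Gab3, Pik3r1, Pim1, Ets2 and Ets1, 12% beside 10.5% over the table.

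**Figure D5:**
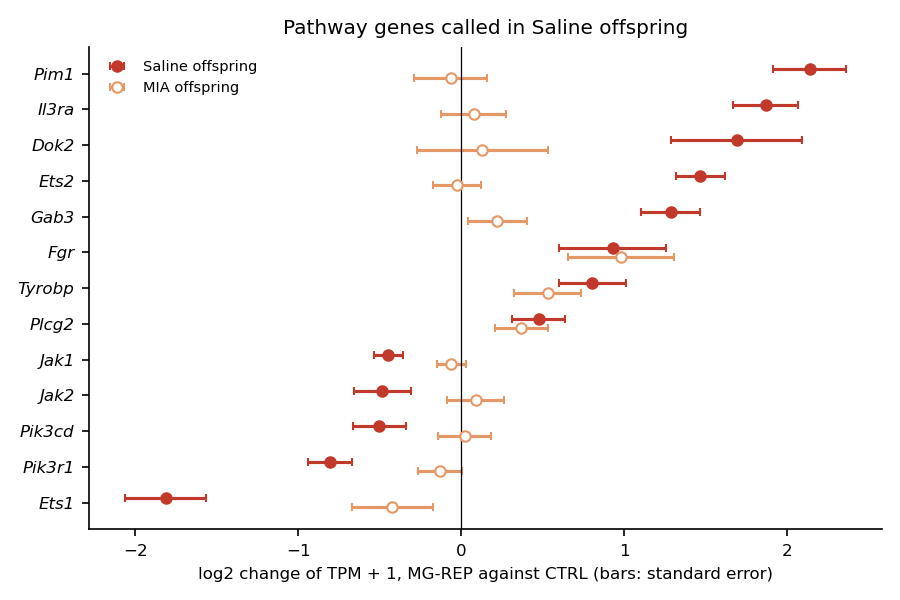
Log2 difference of TPM + 1 between MG-REP and CTRL (bars: standard error) for the 13 listed pathway transcripts called in Saline offspring, in Saline (filled red) and MIA (open orange) offspring. The genes shown were picked by their call in Saline offspring, and Fgr was at 0.93 in Saline and 0.98 in MIA offspring, while Pim1 was at 2.14 and -0.07.

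Among the listed genes that were not analysed here, for want of a row, were Csf2, Il3, Il5, Il5ra, Pdgfrb, Src, Gab2, Inpp5d, Dok1, Spry1, Stat3, Stat5a, Socs1, Runx1, Cebpa and Cebpb. Csf3, the ligand of CSF3R, had a row and was at or near 0 at P60, with 0.0733 TPM in Saline + CTRL and 0.117 TPM in Saline + MG-REP.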

How the data were processed

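CD11b+ cells were profiled by non-stranded poly(A) RNA-seq in 30 libraries. Per the study's methods, 40-base single-end reads were aligned with Rsubread to mm10 and counted with featureCounts, low transcripts were removed, and the authors deposited TPM, 1 row per RefSeq transcript. The TPM formula and the treatment of reads shared by transcripts or paralogs are not given in the sources used here. The deposited table also holds the authors' module of each row, given only as a description.

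Groups came from the sample titles. One limma 3.58.1 fit (R 4.3.3) of log2(TPM + 1) over all 30 libraries and 10 groups, with a mean-variance trend, gave all contrasts. P-values were adjusted over 14225 transcripts, and a call is an adjusted p under 0.05. The study's counts were not used here, so no count model was fitted. The fit was checked on simulated data with independent normal noise for each transcript. These held no difference in Xist marking and no libraries that stood apart, so the check does not bear on those. Ratios were compared by exact permutation.

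Members and gene lists were chosen with earlier results of these data known. Named genes were all members, per pathway list the 3 largest rises and falls among those called for MG-REP in Saline offspring and each call in MIA offspring, and per member the 3 transcripts with the highest Pearson r among rows of at least 10 TPM on average. Kitl, Spi1, Csf3 and the marker genes were named after their values were seen. A few genes that these rules or the marker lists would name are not reported here. Alternatives were another pseudocount, a minimum mean TPM, median-ratio scaling, quantile normalization, no trend, a replicate block, only the compared groups, Xist as a covariate and each library left out. Leaving out the Y-marked CTRL libraries, and single libraries for the pathway transcripts, was chosen after seeing the data.

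Depth was estimated from transcript lengths (GENCODE vM21, 98.4% of rows matched): in each library 73.3% to 79.4% of low values lay within 0.2 of a whole number of reads, where chance gives 40%.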

Additional observations from a re-analysis of the deposited data

Results flagged for a closer look

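Csf2ra was singled out because the effect of MG-REP differed between MIA and Saline offspring by a test of that difference itself, at -0.86 on the log2 scale (SE 0.27, limma, adjusted p = 0.0400). Csf2ra was higher after MG-REP in both arms, with no overlap between the 3 libraries of each group. Over 9 alternative settings the difference lay between -0.93 and -0.68, with adjusted p-values from 0.0367 to 0.438. The Xist marking differs between MG-REP and CTRL libraries in the same way in both arms. The call was kept with Xist as a covariate and lost without the Y-marked libraries. Beyond these fits the part of Xist marking in this difference was not tested.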

How the results depend on the processing

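The count of members called moved with the setting in these cases. For MG-REP against CTRL in Saline offspring it was 2, and it was 1 with Xist as a covariate and 1 without the Y-marked CTRL libraries, and 3 under quantile normalization (Flt3 joining) and with a replicate block. It was also 2, with Csf1r lost, under median-ratio scaling (Flt3 in its place) and with only the compared groups (Csf2rb in its place). For the difference between the arms it was 1, and it was 0 under median-ratio scaling, quantile normalization, no mean-variance trend and without the Y-marked libraries. For MIA against Saline within MG-REP it was 1, and 2 with a pseudocount of 0.1. From E17 to P7 it was 0, and 1 under quantile normalization. From P20 to P60 CTRL it was 1, and 0 with Xist as a covariate. With each library left out in turn, the count ranged from 2 to 3 in Saline offspring (3 without library 1 of Saline + MG-REP, Flt3 joining), from 0 to 1 for E17 to P7 (1 without library 2 of MIA at E17, Csf1r), from 0 to 1 between the arms and from 1 to 2 within MG-REP (2 without library 2 of Saline + MG-REP, where Csf1 was called). It stayed at 4 from P7 to P20, but without library 3 of Saline at P20 Csf1 was lost (adjusted p = 0.0502) and Csf2rb, lower, took its place. The causes were not tested.

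Changes of sign fell on values that did not pass the test. Csf1r in MIA offspring was -0.08, and 0.12 with Xist as a covariate and 0.31 without the Y-marked libraries. Without those libraries the difference between the arms was 0.0034 for Csf2rb, -0.30 for Csf2rb2 and 0.15 for Flt3. Leaving out single libraries gave -0.11 to 0.27 for Csf2rb2 and -0.37 to 0.0062 for Csf3r in Saline offspring, -0.28 to 0.045 for Csf1r in MIA offspring and -0.44 to 0.16 for Flt3 between the arms.

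Whether the replicate numbers pair libraries is not settled: 12 of 27 same-numbered pairs had a correlation of deviations over 0.1 (range -0.53 to 0.66). At P20 the same-numbered pairs had 0.24, 0.10 and 0.13, and no differently numbered pair exceeded 0.024. At P7 the same-numbered pairs had 0.13, -0.11 and -0.013. The main fit used no pairing. With a replicate block the count within MG-REP was 2 (Csf1r joining at 0.51, adjusted p = 0.0454), and Csf2rb passed in Saline offspring (adjusted p = 0.0479). The TPM table limits precision for the members under 10 TPM, whose values rest on few reads.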
